A study of Mus musculus with 8 samples.

Results

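Monocyte-derived macrophages (MoM) were compared with Kupffer cells in the livers of TG mice, which carry dnTGFβRII, a dominant-negative form of the type II receptor for TGF-β, and are used as a cholangitis model. The comparison took the 4 libraries whose titles name TG and 1 of these macrophage subsets, 2 of Kupffer cells and 2 of MoM, from a series of 8 libraries, and all 24786 gene symbols counted in them. The other 4 libraries came from the same subsets, 2 each, of wild-type (WT) mice. All were libraries of polyadenylated RNA from liver macrophages of strain C57BL/6. In this transgenic line the receptor fragment is made in T cells under a Cd4 promoter, so that the macrophages themselves are not its intended site. The labels give neither age nor sex, no treatment, and no markers or gates by which the subsets were parted. They do not say whether the 2 libraries of a group came from separate animals, so p-values measure only the spread between these libraries.

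Kupffer cells are the macrophages that live in the liver sinusoids. They are seeded before birth, renew locally, and clear dead cells, bacteria, aged red cells and their iron from portal blood. Signals of the sinusoid, among them Notch ligands and TGF-β family members of the endothelium, hold a Kupffer program that depends on factors such as LXRα and SpiC. Monocytes that enter an inflamed liver become macrophages too, and keep for a time the receptors, integrins and antigen presentation genes of their blood stage. Bulk libraries do not separate fewer cells of a type from less of an RNA per cell.

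The 4 libraries held 26190194 to 28829274 counts, and 15254 genes passed the filter on low counts over all 8 libraries. Levels are CPM, counts relative to the scaled library size (edgeR's TMM), and differences are log2 fold changes, MoM minus Kupffer, ± their SE, with n = 2 libraries per subset. A gene was called, and is said to have risen or fallen in MoM, at an edgeR quasi-likelihood p below 0.05 after Benjamini-Hochberg adjustment over all genes tested. Across genes, the MoM libraries had a Spearman correlation of 0.963 with each other, and the Kupffer libraries 0.895. Kupffer replicate 2 had a higher correlation with MoM replicate 2 (0.911) than with its own partner. Over the series its highest was with MoM WT replicate 1 (0.954), above those with the WT Kupffer libraries (0.900 and 0.909). Kupffer replicate 2 also held markers of liver sinusoidal endothelium at a summed 17066 CPM, against 2025 CPM in Kupffer replicate 1. In MoM WT replicate 1 they summed to 10806 CPM. Neutrophil markers summed to 4938 CPM in MoM replicate 2 and to 601 CPM in MoM replicate 1. The median log2 fold change of a gene list is given from all libraries and then, in parentheses, without Kupffer TG replicate 2 and without MoM TG replicate 2, in turn.

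The receptor gene was read, and the subset labels were checked on markers of each subset. Tgfbr2, the type II TGF-β receptor (GRCm38 chromosome 9, 116084293 to 116175360), had 319 and 289 CPM in Kupffer cells and 249 and 178 CPM in MoM (log2 fold change -0.51 ± 0.26, adjusted p = 0.272). Both subsets were of TG mice, and counts per gene do not tell a transgene from the gene itself, so Tgfbr2 did not check the labels. Clec4f, a lectin held to be particular to Kupffer cells, stood at 6558 and 2736 CPM in Kupffer cells and at 125 and 45.6 CPM in MoM. Timd4, a receptor for phosphatidylserine on dead cells, stood at 897 and 414 CPM and at 22.6 and 16.98 CPM. Vsig4, a receptor for complement-coated particles, stood at 1769 and 1173 CPM and at 31.6 and 23.3 CPM. The nearest libraries of the subsets lay 21.9-fold apart in Clec4f, 18.4-fold in Timd4 and 37.1-fold in Vsig4, so these markers went with the labels. Ccr2, the chemokine receptor of blood monocytes, went the other way, with 10.1 and 13.1 CPM in Kupffer cells and 216 and 459.7 CPM in MoM. The macrophage genes Adgre1 (F4/80) and Csf1r (the receptor for CSF1) were read in all 4 libraries. Adgre1, also placed in the Kupffer list below, was lower in MoM, by 3.5-fold between the nearest libraries. Of 14 pan-macrophage genes tested, Csf1r among them, none was called. In both MoM libraries 7 lay lower, against 23.8% of all genes, and the median was -0.84 (-1.39 and -0.91 in turn). Csf1r stood at 7086 and 3522 CPM in Kupffer cells and at 1616 and 1234 CPM in MoM (log2 fold change -1.9 ± 0.7, adjusted p = 0.159).

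Between the subsets 281 genes rose (1.84% of the 15254 tested) and 100 fell (0.656%) in MoM. All 381 had both MoM libraries on the same side of both Kupffer libraries, an order that 8072 genes (52.9%) showed. Wider gaps were rarer: in 462 genes (3.03%) every MoM library was at least 4-fold above every Kupffer library, and in 309 genes (2.03%) at least 4-fold below. The median log2 fold change was 2.53 over the called rises, -2.75 over the called falls and -0.04 over all genes tested (0.10 and -0.12 in turn). The smallest called change was 0.95 on the log2 scale. In 4 of the 381 genes both libraries of 1 subset had 0 counts, and with these set to a bound from 3 counts per library the medians were 2.53 and -2.74. With 2 libraries against 2, an exact two-sided permutation test of a single gene cannot go below p = 0.333, so all calls rest on the spread shared across the 4 groups. The calls fell to 0 without Kupffer TG replicate 1 and to 1 without any one of the WT Kupffer or TG MoM libraries, and they came to 850 without Kupffer TG replicate 2, with 262 of the 381 among them. Leaving out either WT MoM library, replicate 1 or 2, gave 1006 or 1026. Without MoM WT replicate 1 the split was 490 higher and 516 lower, so the excess of rises was not seen in each fit. DESeq2 called 2563 of 15129 genes (16.9%), 1265 higher and 1298 lower, with all 381 among them.

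**Figure D1:**
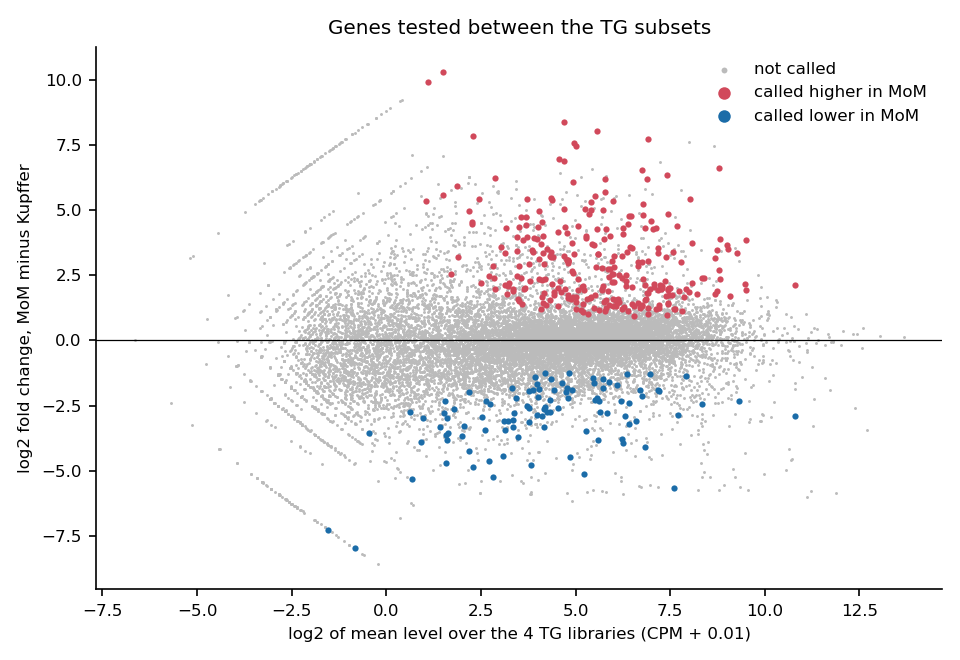
Log2 fold change of each of 15254 genes between TG MoM and TG Kupffer cells (vertical axis) against the log2 of its mean level in CPM over the 4 TG libraries (horizontal axis). Red points are the 281 genes called higher and blue points the 100 called lower in MoM; many grey points lie as far from 0, and the diagonal rows at low levels are genes with 0 or few counts in 1 subset.

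Counting only called genes whose higher subset averaged 10 CPM or more, the 15 largest rises in MoM included the lectins Mgl2 and Cd209a, the enzyme Ace and the receptor Ffar2, each under 10 CPM in both Kupffer libraries. Mgl2, the lectin CD301b, which binds galactose and is found on antigen-presenting cells (GRCm38 chromosome 11, 70130329 to 70137550), had 0.302 and 0.406 CPM in Kupffer cells and 93.2 and 95.7 CPM in MoM (log2 fold change 8.04 ± 0.35, adjusted p = 0.00367). Cd209a, a lectin of monocyte-derived dendritic cells, stood at 0.605 and 1.66 CPM in Kupffer cells and at 209.6 and 267 CPM in MoM (log2 fold change 7.71 ± 0.7, adjusted p = 0.0188). Both lectins were even within MoM, with 1.03-fold and 1.27-fold between the replicates. Ace, the angiotensin-converting enzyme, which nonclassical monocytes carry (GRCm38 chromosome 11, 105967945 to 105989964), stood at 7.67 and 9.95 CPM and at 1255 and 499.6 CPM (log2 fold change 6.64 ± 0.6, adjusted p = 0.0188). Its MoM libraries lay 2.51-fold apart, and the lower was 50.2-fold above the higher Kupffer library. Ffar2, which senses the short-chain fatty acids of gut bacteria, stood at 0.0756 and 0.221 CPM in Kupffer cells, where replicate 1 had 2 counts, and at 60.4 and 42.8 CPM in MoM (log2 fold change 8.4 ± 1.11, adjusted p = 0.0307).

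The other large rises included signal receptors and enzymes. Trem1, an activating receptor that amplifies inflammatory signals, stood at 3.86 and 2.58 CPM and at 222 and 245 CPM (log2 fold change 6.18 ± 1.05, adjusted p = 0.0466). Il1r2, the decoy receptor for interleukin 1, which neutrophils also carry, stood at 2.46 and 5.83 CPM and at 293 and 378 CPM (log2 fold change 6.34 ± 0.96, adjusted p = 0.038). Kmo, kynurenine monooxygenase of the tryptophan pathway, stood at 0.567 and 2.36 CPM and at 94.6 and 120.0 CPM (log2 fold change 6.19 ± 0.74, adjusted p = 0.0277). The nearest libraries of the subsets lay 57.6-fold apart in Trem1, 50.3-fold in Il1r2 and 40.1-fold in Kmo. Siglecg, an inhibitory sialic acid receptor, rose by a log2 fold change of 5.54 ± 0.66, Mapk13, the p38δ kinase, by 6.23 ± 0.69, and Eps8, an actin-capping adaptor, by 5.7 ± 0.77. Serpinb10, of a family of intracellular protease inhibitors (7.59 ± 0.9), Ctnnd2, δ-catenin (7.48 ± 0.86), the orphan receptor Gpr141 (6.55 ± 0.8) and Tiam2, an exchange factor for Rac (5.47 ± 0.69), rose as well. GENCODE M21 lists Serpinb10 as a polymorphic pseudogene. S1pr5, a sphingosine 1-phosphate receptor of patrolling monocytes and NK cells, was the least even: its MoM libraries had 107 and 13.4 CPM, against 0.68 and 1.11 CPM in Kupffer cells (log2 fold change 6.07 ± 1.05, adjusted p = 0.0473).

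By the same rule the 15 largest falls in MoM included the growth factors Igf1 and Pdgfc, the proteoglycan Sdc2, the transcription factor Spic and the hydrolase Ephx1. Igf1, insulin-like growth factor 1, a trophic factor that tissue macrophages release (GRCm38 chromosome 10, 87858265 to 87937042), stood at 482 and 277 CPM in Kupffer cells and at 7.53 and 7.29 CPM in MoM (log2 fold change -5.68 ± 1.03, adjusted p = 0.0493). Pdgfc, a platelet-derived growth factor that acts on stellate cells and fibroblasts, stood at 99.00 and 46.7 CPM and at 2.48 and 1.74 CPM (log2 fold change -5.11 ± 0.69, adjusted p = 0.0308). Sdc2, the proteoglycan syndecan 2, stood at 33.8 and 21.02 CPM and at 0.602 and 1.39 CPM (log2 fold change -4.77 ± 0.57, adjusted p = 0.0277). In each of these 3 genes Kupffer replicate 2 was the lower of its pair, and it was still 36.8-fold, 18.8-fold and 15.1-fold above the higher MoM library. Spic, the factor of iron-recycling macrophages (GRCm38 chromosome 10, 88674772 to 88685015), stood at 115 and 165 CPM and at 7.94 and 12.2 CPM (log2 fold change -3.79 ± 0.68, adjusted p = 0.0486). Ephx1, microsomal epoxide hydrolase, stood at 257 and 176 CPM and at 12.95 and 12.4 CPM (log2 fold change -4.09 ± 0.62, adjusted p = 0.0371). C4a, a complement C4 gene, stood at 214 and 73.4 CPM and at 7.12 and 11.5 CPM (log2 fold change -3.95 ± 0.68, adjusted p = 0.0468). C4a and C4b are close copies, so reads may be split between them. Angptl4, an inhibitor of lipoprotein lipase, stood at 17.3 and 19.8 CPM and at 1.66 and 2.01 CPM, and Cdk18, a kinase of the CDK family, at 15.6 and 16.5 CPM and at 1.58 and 1.35 CPM. These last 2 were even within each subset. Adam33, a membrane disintegrin and metalloprotease, fell by 5.23 ± 0.74 on the log2 scale. Fblim1, a filamin adaptor (-4.46 ± 0.8), Stard13, a GTPase-activating protein (-4.41 ± 0.58), and Gpm6b, a membrane proteolipid (-3.71 ± 0.55), fell too, as did Tanc2 (-3.8 ± 0.59) and Dip2c (-3.48 ± 0.59).

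**Figure D2:**
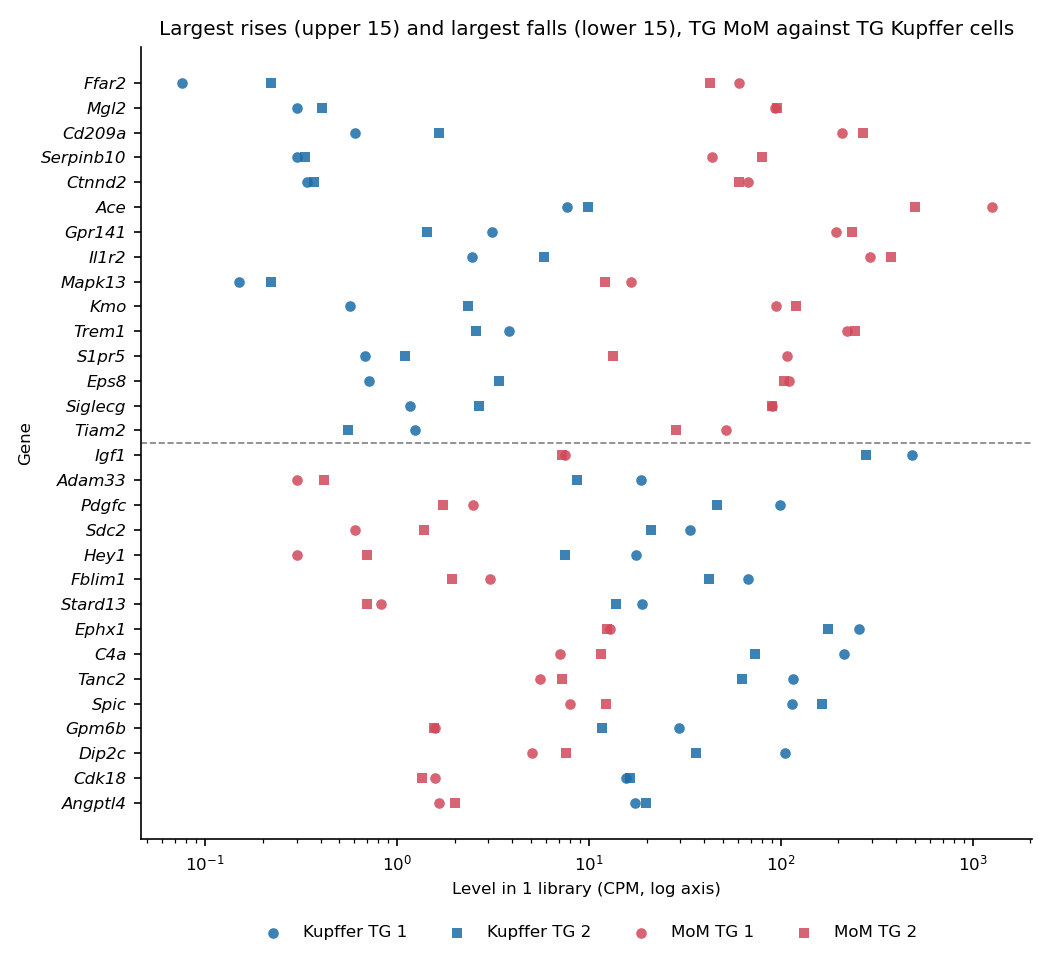
Level in CPM (log axis) of the 15 largest rises and the 15 largest falls in each of the 4 TG libraries, blue for Kupffer cells and red for MoM, circles for replicate 1 and squares for replicate 2. In all 30 genes the red and the blue points lie apart, and the widest spread within a subset is that of S1pr5 in MoM.

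The sequences before the start sites of Mgl2, a large rise, and of Spic, a transcription factor that fell, are shown with the ETS core, the word bound by PU.1, a factor that macrophages need. They are the 250 bases upstream of the RefSeq start in GRCm38.p6, 5′ to 3′ on the gene's own strand, with the ETS core AGGAAG or its reverse CTTCCT in capitals.
Mgl2 (chr11:70130107-70130356, plus strand): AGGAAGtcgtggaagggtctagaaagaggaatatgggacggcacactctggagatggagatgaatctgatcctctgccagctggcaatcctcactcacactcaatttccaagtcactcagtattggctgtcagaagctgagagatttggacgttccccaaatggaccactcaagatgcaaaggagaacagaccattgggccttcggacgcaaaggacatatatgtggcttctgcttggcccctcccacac
Spic (chr10:88683024-88683273, minus strand): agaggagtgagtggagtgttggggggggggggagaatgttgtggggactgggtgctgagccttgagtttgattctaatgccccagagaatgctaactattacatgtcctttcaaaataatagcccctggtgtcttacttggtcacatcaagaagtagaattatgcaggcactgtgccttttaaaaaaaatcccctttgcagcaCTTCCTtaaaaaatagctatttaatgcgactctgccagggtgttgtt
In Mgl2 the match began 250 bases before the start, and in Spic 47 bases before it. This core is short and common: either strand held it in 32.7% of the promoters of called rises (71 of 217 with an entry), 30.0% of those of called falls (24 of 80), and 28.9% of the 11653 promoters of genes tested. RBPJ's GTGGGAA or its reverse stood in 10 of 217 rises (4.61%), 1 of 80 falls (1.25%) and 5.54% of the promoters of genes tested.

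Kupffer identity genes were far lower in MoM. Of 25 surface and secreted genes of Kupffer cells, all tested, none was called (2.5% of all genes were). An unadjusted p below 0.05 was found in 23, against 3881 of the 15254 genes tested. Both MoM libraries lay below both Kupffer libraries in 23, against 23.8% of all genes tested. For 22 of the 25 the gap was at least 4-fold, and the list's median log2 fold change was -5.05 (-5.61 and -4.86 in turn), against -0.04 over all genes. The list summed to 40745 and 23262 CPM in Kupffer cells and to 1432 and 1625 CPM in MoM. Its median member stood at 3.44% of the mean TG Kupffer level in MoM replicate 1 and at 2.59% in replicate 2. Hpgd, the enzyme that inactivates prostaglandins, stood at 616 and 483 CPM and at 51.7 and 51.3 CPM (log2 fold change -3.42 ± 0.67, adjusted p = 0.0564). Ccl24, an eosinophil chemokine, stood at 400.0 and 412 CPM and at 16.3 and 35.7 CPM (log2 fold change -3.96 ± 0.86, adjusted p = 0.0653). Gfra2, a co-receptor for neurturin, stood at 212 and 53.7 CPM and at 10.6 and 9.34 CPM (log2 fold change -3.74 ± 0.86, adjusted p = 0.0714). Between the nearest libraries Hpgd differed 9.35-fold, Ccl24 11.2-fold and Gfra2 5.06-fold.

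The number of calls among Kupffer genes depended on the fit. MoM WT replicate 1 held the same 25 genes at a median 31.4% of their WT Kupffer level, and MoM WT replicate 2 at 1.37%, and the fit takes 1 estimate of the spread per gene over all 4 groups. Leaving out MoM WT replicate 1, or MoM WT replicate 2, left the median of the 25 at -5.05. In each of these fits more of the 25 were called than in the edgeR fit of all 8 libraries. The WT MoM group then had 1 library and no spread of its own, and the cause was not tested. DESeq2 called 23 of the 25 on all 8 libraries, against 16.9% of all genes in that fit.

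Transcription factors split in both directions. Of 27 factors of Kupffer cells and macrophages, all tested, Runx3 and Nr4a1 rose and Spic fell, against 2.5% of all genes called. The median was -0.16 (-0.77 and -0.31 in turn). In 10 factors both MoM libraries were above, and in 12 below, both Kupffer libraries, against 29.1% and 23.8% of all genes. Runx3, a factor of dendritic and lymphoid cells, stood at 5.86 and 20.1 CPM in Kupffer cells and at 318 and 182 CPM in MoM (log2 fold change 4.26 ± 0.75, adjusted p = 0.0476). Nr4a1, the nuclear receptor Nur77 on which Ly6C-low monocytes depend and which handling of cells also induces, stood at 740.5 and 569 CPM and at 3363 and 2407 CPM (log2 fold change 2.14 ± 0.38, adjusted p = 0.0476). It was the only called gene of a list of 20 dissociation stress genes (5.0% called, against 2.5% of all genes). The median of that list was 0.13 (0.11 and 0.33 in turn). Rxra, the partner of LXR and other nuclear receptors, stood at 748 and 405 CPM and at 64.98 and 63.5 CPM (log2 fold change -3.17 ± 0.66, adjusted p = 0.0623). Irf4, a factor of monocyte-derived dendritic cells, stood at 6.2 and 18.6 CPM and at 76.8 and 98.1 CPM (log2 fold change 2.82 ± 0.62, adjusted p = 0.0681). The nearest libraries lay 6.23-fold and 4.13-fold apart, and neither gene passed the test.

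Among signals of the liver niche only single genes were called: a Notch target and a BMP receptor fell, and a Notch ligand rose. Of 24 Notch pathway genes tested, 1 rose and 1 fell (8.33% called, against 2.5% of all genes), and the median was 0.10 (1.21 and 0.35 in turn). Hey1, a repressor that Notch signalling switches on, stood at 17.5 and 7.56 CPM in Kupffer cells and at 0.301 and 0.694 CPM in MoM (log2 fold change -4.64 ± 0.76, adjusted p = 0.0433). Jag2, a Notch ligand, stood at 0.68 and 1.33 CPM and at 39.5 and 24.3 CPM (log2 fold change 4.98 ± 0.57, adjusted p = 0.0277). So a target was lower and a ligand higher in MoM, by 10.9-fold and 18.3-fold between the nearest libraries. The receptor Notch2 stood at 201 and 96.6 CPM and at 788 and 496 CPM (log2 fold change 2.11 ± 0.44, adjusted p = 0.061), and Rbpj, the DNA-binding partner of Notch, at 26.8 and 56.3 CPM and at 141 and 214 CPM (log2 fold change 2.09 ± 0.49, adjusted p = 0.0731). Of 26 TGF-β and BMP pathway genes, 1 was called (3.85%, near the 2.5% of all genes), and the median was -0.73 (0.18 and -0.79 in turn). It was Bmpr1a, a type I BMP receptor, at 16.7 and 14.2 CPM and at 1.24 and 2.4 CPM (log2 fold change -3.08 ± 0.42, adjusted p = 0.0312). Acvrl1, the receptor ALK1 that responds to BMP9 and BMP10, stood at 205 and 151 CPM and at 54.7 and 52.3 CPM (log2 fold change -1.74 ± 0.38, adjusted p = 0.0676).

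Of 24 secreted growth factors tested, 3 fell and 1 rose (16.7% called, against 2.5% of all genes), with a median of -0.80 (-0.12 and -1.31 in turn). Besides Igf1 and Pdgfc, Pdgfa fell, from 5.48 and 5.31 CPM to 0.753 and 0.625 CPM (log2 fold change -2.96 ± 0.52, adjusted p = 0.0476). Tnfsf13b, the B cell survival factor BAFF, rose from 1.06 and 0.848 CPM to 5.31 and 5.76 CPM (log2 fold change 2.53 ± 0.45, adjusted p = 0.0476). Both were low genes, even between replicates. Osm, oncostatin M, stood at 3.25 and 10.2 CPM and at 109 and 287 CPM (log2 fold change 4.87 ± 1.06, adjusted p = 0.0661), and Hbegf, an EGF receptor ligand, at 153 and 191 CPM and at 9.52 and 24.5 CPM (log2 fold change -3.34 ± 0.76, adjusted p = 0.0713).

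Of 24 chemokines tested, Ccl17 rose and Ccl12 and Pf4 fell (12.5% called, against 2.5% of all genes), and the median was -0.54 (0.39 and -1.76 in turn). Ccl17, which draws cells with CCR4, stood at 0.605 and 1.11 CPM and at 16.2 and 29.5 CPM (log2 fold change 4.73 ± 0.54, adjusted p = 0.0277). Ccl12, a ligand of CCR2, stood at 4.42 and 6.89 CPM and at 0.376 and 0.59 CPM (log2 fold change -3.54 ± 0.5, adjusted p = 0.0347). Pf4, which platelets carry in bulk, stood at only 2.95 and 2.43 CPM and 0.301 and 0.486 CPM (log2 fold change -2.76 ± 0.44, adjusted p = 0.0433). Higher in level, but not called, was Cxcl13, the chemokine that attracts B cells, at 1397 and 516 CPM and 30.6 and 10.7 CPM (log2 fold change -5.53 ± 1.11, adjusted p = 0.0578).

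Of 25 receptors for chemoattractants, all tested, 5 rose and 1 fell (24.0% called, against 2.5% of all genes), with a median of 1.39 (2.39 and 1.47 in turn). Ltb4r1, the leukotriene B4 receptor (GRCm38 chromosome 14, 55765962 to 55768494), stood at 1.55 and 1.33 CPM in Kupffer cells and at 31.5 and 35.2 CPM in MoM (log2 fold change 4.53 ± 0.39, adjusted p = 0.0188). Gpr183, the receptor for oxysterols that positions cells in lymphoid tissue, stood at 1.63 and 3.32 CPM and at 40.02 and 47.7 CPM (log2 fold change 4.15 ± 0.57, adjusted p = 0.032). Ccr2, given above, rose by log2 fold change 4.86 ± 0.51, adjusted p = 0.0248, and Ffar2 and S1pr5 were the other rises. C3ar1, the receptor for complement C3a, was the fall, from 98.1 and 102 CPM to 15.5 and 13.5 CPM (log2 fold change -2.79 ± 0.33, adjusted p = 0.0277). In Ltb4r1 and C3ar1 the replicates of a subset lay within 1.17-fold of each other, and in Gpr183 within 2.04-fold. Ccr7, which guides dendritic cells to lymph nodes, stood at 5.14 and 23.5 CPM and at 360.1 and 397 CPM (log2 fold change 4.72 ± 0.89, adjusted p = 0.0544). Cx3cr1, the fractalkine receptor, stood at 5.59 and 6.34 CPM and at 117 and 89.7 CPM (log2 fold change 4.11 ± 0.8, adjusted p = 0.0553).

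Blood monocyte genes were higher in MoM. Of 20 classical monocyte genes, all tested, 3 rose, 17 had both MoM libraries above both Kupffer libraries (against 29.1% of all genes), and all 20 fold changes were positive, with a median of 4.03 (4.41 and 2.10 in turn). In Kupffer cells the median member stood at 4.32% (replicate 1) and 8.50% (replicate 2) of its mean MoM level. Napsa, an aspartic protease of monocytes, stood at 5.56 and 18.2 CPM and at 465 and 544 CPM (log2 fold change 5.41 ± 0.7, adjusted p = 0.0305). Ms4a4c, a tetraspan protein of monocytes, stood at 6.31 and 14.1 CPM and at 144 and 349 CPM (log2 fold change 4.6 ± 0.73, adjusted p = 0.0417). S100a4 and S100a6, small calcium-binding proteins, stood at 1.66 and 8.59 CPM and 2.38 and 10.8 CPM in Kupffer cells, respectively, and at 146 and 364 CPM and 117 and 145 CPM in MoM. Their adjusted p were 0.0613 and 0.0505, just short of a call. Ly6c2, which marks classical monocytes but which neutrophils also carry, stood at 33.4 and 517 CPM in MoM and at 13.6 and 24.2 CPM in Kupffer cells (log2 fold change 3.87 ± 1.43, adjusted p = 0.16). The high value was that of the MoM library with neutrophil markers; the part of neutrophil RNA in it was not tested. Without both Kupffer TG replicate 2 and MoM TG replicate 2 the list's median was 1.67.

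Of 19 nonclassical monocyte genes, all tested, the median was 1.33 (2.15 and 1.73 in turn). Among them 3 rose (15.8% called, against 2.5% of all genes). After Ace, these were Pglyrp1, a peptidoglycan-binding protein that neutrophils also hold, at 1.44 and 3.95 CPM and 86.9 and 70.7 CPM (log2 fold change 4.87 ± 0.8, adjusted p = 0.0433), and Eno3, an enolase, at 6.77 and 5.71 CPM and 121 and 40.3 CPM (log2 fold change 3.7 ± 0.55, adjusted p = 0.0371). Dusp16, a phosphatase that acts on JNK, stood at 33.4 and 28.9 CPM and at 470.3 and 241 CPM (log2 fold change 3.51 ± 0.68, adjusted p = 0.0551). Eno3, Dusp16 and Ace had their higher value in MoM replicate 1, as did S1pr5. The list was mixed: 11 members lay higher and 3 lower in both MoM libraries, against 29.1% and 23.8% of all genes.

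Dendritic cell genes had the most calls of any identity list. Of 23 tested, 6 rose and none fell (26.1% called, against 2.5%). In both MoM libraries 17 lay higher, against 29.1% of all genes, and the median was 2.40 (4.85 and 2.40 in turn). Without Kupffer TG replicate 2, 12 of the list were called higher. Itgax, the integrin CD11c, stood at 37.3 and 114 CPM and at 1041 and 854 CPM (log2 fold change 3.64 ± 0.6, adjusted p = 0.0433). Wdfy4, which serves cross-presentation, stood at 327 and 193 CPM and at 1366 and 951 CPM (log2 fold change 2.16 ± 0.35, adjusted p = 0.0433). Itgax had its higher Kupffer value in replicate 2, and Wdfy4 in replicate 1. Mgl2, Cd209a, Kmo and H2-DMb2 were the other 4.

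Among MHC class II genes the calls were chains of the peptide editors H2-DM and H2-O, and the class II chain H2-Eb2. Of 15 tested, these 4 rose and none fell (26.7% called, against 2.5% of all genes). H2-Oa stood at 4.23 and 12.8 CPM in Kupffer cells and at 135 and 151 CPM in MoM (log2 fold change 4.07 ± 0.61, adjusted p = 0.0369). H2-Ob, its partner, stood at 7.79 and 20.5 CPM and at 166 and 164 CPM (log2 fold change 3.54 ± 0.51, adjusted p = 0.0347). H2-DMb2, a chain of the exchange factor, stood at 72.5 and 67.1 CPM and at 282 and 281 CPM (log2 fold change 2.01 ± 0.34, adjusted p = 0.0467). Both H2-O chains were even in MoM, and in Kupffer cells 3.01-fold (H2-Oa) and 2.63-fold (H2-Ob) higher in replicate 2 than in replicate 1. Ciita, the transactivator of the class, stood at 303 and 105 CPM and at 394 and 357 CPM (log2 fold change 0.88 ± 0.47, adjusted p = 0.301), and Ctss, cathepsin S, which trims the invariant chain, at 2962 and 1950.0 CPM and 1428 and 1333 CPM (log2 fold change -0.83 ± 0.39, adjusted p = 0.241). The median over the 15 was 0.25 (-0.07 and 0.17 in turn).

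Of 25 costimulation and checkpoint genes tested, 2 rose (8.0% called, against 2.5% of all genes). Havcr2, the checkpoint receptor TIM-3, stood at 7.07 and 19.5 CPM and at 300.0 and 233 CPM (log2 fold change 4.33 ± 0.55, adjusted p = 0.0304), and Icosl, the ligand of ICOS on T cells, at 10.6 and 19.6 CPM and 84.2 and 116 CPM (log2 fold change 2.73 ± 0.36, adjusted p = 0.0308). Nectin2, a ligand of TIGIT, had a lower level in MoM, 9.34 and 16.2 CPM against 43.4 and 65.96 CPM (log2 fold change -2.1 ± 0.45, adjusted p = 0.064).

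Calls among adhesion, cytoskeletal and protease genes went in both directions. Of 26 integrin and adhesion genes tested, Itgax rose and Sdc2 fell (7.69% called, against 2.5% of all genes). Itgam, the integrin CD11b, stood at 77.5 and 28.2 CPM in Kupffer cells and at 491 and 674 CPM in MoM (log2 fold change 3.46 ± 0.66, adjusted p = 0.0544), and Itga4, which binds VCAM-1, at 323 and 214 CPM and 1544 and 1535 CPM (log2 fold change 2.52 ± 0.57, adjusted p = 0.0697). Of 26 regulators of the cytoskeleton, 3 rose and 3 fell (23.1% called). Coro1a, coronin 1A of the leukocyte cortex (GRCm38 chromosome 7, 126699773 to 126707787), stood at 109 and 108 CPM and at 1401 and 848 CPM (log2 fold change 3.38 ± 0.34, adjusted p = 0.0246). Lsp1, an actin-binding protein of leukocytes, stood at 49.97 and 121 CPM and at 836 and 1092 CPM (log2 fold change 3.49 ± 0.6, adjusted p = 0.0472), and Myo1g, a leukocyte myosin, at 139.9 and 91.6 CPM and 866 and 660.2 CPM (log2 fold change 2.72 ± 0.36, adjusted p = 0.0308). The falls were Fmn1, a formin (45.6 and 39.1 CPM against 9.52 and 12.2 CPM; log2 fold change -1.96 ± 0.23, adjusted p = 0.0277), Stard13 and Fblim1. Of 25 matrix proteases and inhibitors, 2 rose and 2 fell. Spint1, an inhibitor of membrane serine proteases, stood at 1.44 and 2.65 CPM and at 96.9 and 67.7 CPM (log2 fold change 5.33 ± 0.46, adjusted p = 0.0188). Timp2, an inhibitor of metalloproteases, stood at 210.1 and 96.6 CPM and at 17.7 and 15.7 CPM (log2 fold change -3.2 ± 0.49, adjusted p = 0.0387). Plaur, the urokinase receptor, stood at 36.9 and 37.9 CPM and at 435 and 375 CPM (log2 fold change 3.44 ± 0.73, adjusted p = 0.0631).

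Many genes for the uptake of particles and for complement were lower in MoM, with few calls. Of 22 scavenger and phagocytic receptors tested, none was called and 10 had an unadjusted p below 0.05, against 3881 of the 15254 genes tested. In both MoM libraries 11 lay lower, against 23.8% of all genes, and the median was -1.42 (-1.27 and -2.09 in turn). Mertk, the receptor tyrosine kinase for clearance of dead cells, stood at 776 and 589 CPM and at 32.4 and 58.2 CPM (log2 fold change -3.91 ± 0.9, adjusted p = 0.072). Mrc1, the mannose receptor, stood at 1674 and 1739 CPM and at 116 and 291 CPM (log2 fold change -3.07 ± 0.71, adjusted p = 0.072). Both had their higher MoM value in replicate 2. DESeq2 called 9 of this list lower, and 16.9% of all genes in either direction. Of 23 complement genes and receptors tested, C3ar1 fell and Itgax rose (8.70% called, against 2.5% of all genes). In both MoM libraries 13 lay lower, against 23.8% of all genes, and the median was -1.98 (-1.65 and -3.15 in turn). C2, a protease of the classical pathway, stood at 311 and 182 CPM and at 9.11 and 12.05 CPM (log2 fold change -4.54 ± 1.05, adjusted p = 0.072). DESeq2 called 2 complement genes higher and 12 lower, against 16.9% of all genes in either direction. Among 15 Fc receptors none was called, and 6 had an unadjusted p below 0.05, against 3881 of the 15254 genes tested. Of the 15, DESeq2 called 1 higher and 5 lower, against 16.9% of all genes in either direction. Fcna, a ficolin placed in that list, stood at 1787 and 764 CPM and at 35.95 and 16.1 CPM (log2 fold change -5.62 ± 1.64, adjusted p = 0.105), and Fcgrt, the neonatal Fc receptor, at 535 and 502 CPM and 135 and 125 CPM (log2 fold change -2.0 ± 0.48, adjusted p = 0.0753).

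Most iron and heme genes were lower in MoM. Of 24 tested, 3 fell and none rose (12.5% called, against 0.656% of all genes called lower). In both MoM libraries 15 lay lower and none higher, against 23.8% and 29.1% of all genes. The median was -1.69 (-2.17 and -2.01 in turn). Slc48a1, the transporter that releases heme from the phagolysosome (GRCm38 chromosome 15, 97778520 to 97792692), stood at 278 and 179 CPM in Kupffer cells and at 62.7 and 60.8 CPM in MoM (log2 fold change -1.89 ± 0.32, adjusted p = 0.0466). Ncoa4, the receptor that delivers ferritin for breakdown, stood at 716 and 376 CPM and at 98.4 and 106 CPM (log2 fold change -2.42 ± 0.41, adjusted p = 0.0467). Spic was the third. Hmox1, heme oxygenase 1, stood at 1385 and 1355 CPM and at 112 and 202 CPM (log2 fold change -3.12 ± 0.74, adjusted p = 0.0746), and Trf, transferrin, which hepatocytes also make, at 1004 and 551 CPM and 175 and 127 CPM (log2 fold change -2.37 ± 0.55, adjusted p = 0.0722). Along the route from engulfed red cell to stored iron, the nearest libraries lay 2.86-fold apart for the heme transporter, 6.7-fold for heme oxygenase and 3.56-fold for the ferritin receptor.

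Most lysosomal genes were lower too. Of 31 tested, 25 lay lower in both MoM libraries and 2 higher, against 23.8% and 29.1% of all genes, and the median was -1.12 (-1.49 and -1.21 in turn). Only Ctsd, cathepsin D, was called (3.23% of the list, against 2.5% of all genes). It stood at 3834 and 2499 CPM and at 440.1 and 411 CPM (log2 fold change -2.9 ± 0.52, adjusted p = 0.0486). Tpp1, a tripeptidyl peptidase, stood at 346 and 362 CPM and at 87.98 and 111 CPM (log2 fold change -1.83 ± 0.34, adjusted p = 0.0525), Scarb2, a lysosomal membrane protein, at 542 and 517 CPM and 179 and 214 CPM (log2 fold change -1.43 ± 0.27, adjusted p = 0.0544), and Gaa, acid α-glucosidase, at 182 and 135 CPM and 60.4 and 56.6 CPM (log2 fold change -1.44 ± 0.36, adjusted p = 0.0786). DESeq2 called 19 of the 31 lower, against 16.9% of all genes in either direction. The promoter of the called gene is shown, since lysosomal genes are known for the E-box CACGTG that TFEB binds, its own reverse, given in capitals.
Ctsd (chr7:142387828-142388077, minus strand): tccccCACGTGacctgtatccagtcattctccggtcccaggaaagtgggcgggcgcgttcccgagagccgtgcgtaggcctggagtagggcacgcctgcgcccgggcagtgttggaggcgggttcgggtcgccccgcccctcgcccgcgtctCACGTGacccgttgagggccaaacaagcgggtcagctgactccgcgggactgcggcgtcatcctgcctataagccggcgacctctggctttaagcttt
This E-box stood at 245 and 98 bases before the Ctsd start. It was held by 8 of the 23 lysosomal promoters with an entry (34.8%), by 8.09% of the promoters of genes tested and by 7.50% of those of called falls (6 of 80). A match describes the letters and not the binding of a factor.

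Genes of DNA replication and the cell cycle were higher in MoM. Of 30 tested, 5 rose and none fell (16.7% called, against 1.84% of all genes called higher). In both MoM libraries 23 lay higher and none lower, against 29.1% and 23.8% of all genes. The median was 0.98 (1.13 and 0.88 in turn). Without Kupffer TG replicate 2, 3 of the list were called, and Mcm2, Mcm5, Mcm7 and Bub1 were not. Mcm5, a subunit of the replicative helicase, stood at 33.2 and 33.2 CPM and at 86.3 and 69.6 CPM (log2 fold change 1.23 ± 0.19, adjusted p = 0.0371). Mcm7, another subunit, stood at 26.7 and 25.96 CPM and at 70.6 and 55.1 CPM (log2 fold change 1.26 ± 0.19, adjusted p = 0.0387), and Mcm2 at 25.3 and 28.6 CPM and 56.2 and 51.4 CPM (log2 fold change 1.0 ± 0.18, adjusted p = 0.0493). These changes were small, and the Kupffer replicates differed by only 1.0-fold in Mcm5, 1.03-fold in Mcm7 and 1.13-fold in Mcm2. Rrm2, a subunit of ribonucleotide reductase, stood at 8.2 and 11.7 CPM and at 30.7 and 35.8 CPM (log2 fold change 1.74 ± 0.28, adjusted p = 0.0433), and Bub1, a mitotic checkpoint kinase, at 2.95 and 3.58 CPM and 12.7 and 16.1 CPM (log2 fold change 2.14 ± 0.36, adjusted p = 0.0455). Top2a, topoisomerase IIα, stood at 19.6 and 36.02 CPM and at 132 and 128 CPM (log2 fold change 2.22 ± 0.42, adjusted p = 0.0535). The promoters of the 2 called genes of this list with the smallest p are shown with the E2F words TTTCCCGC, TTTGGCGC and TTTCGCGC or their reverses in capitals; words may overlap.
Mcm5 (chr8:75109259-75109508, plus strand): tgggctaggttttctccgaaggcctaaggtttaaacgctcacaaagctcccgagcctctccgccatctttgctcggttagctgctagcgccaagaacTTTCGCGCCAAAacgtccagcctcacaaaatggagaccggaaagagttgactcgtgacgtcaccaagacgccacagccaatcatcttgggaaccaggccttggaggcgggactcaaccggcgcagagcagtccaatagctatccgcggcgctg
Mcm7 (chr5:138171884-138172133, minus strand): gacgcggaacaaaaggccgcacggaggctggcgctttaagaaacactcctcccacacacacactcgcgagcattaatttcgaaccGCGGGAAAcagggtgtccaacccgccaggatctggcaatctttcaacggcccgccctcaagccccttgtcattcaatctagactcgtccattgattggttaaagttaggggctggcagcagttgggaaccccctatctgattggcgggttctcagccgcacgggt
Such a word was in 5 of the 23 cell cycle promoters with an entry (21.7%), 2.84% of those of genes tested and 2.76% of those of called rises (6 of 217). In Mcm5 2 words overlapped from 153 bases before the start, and in Mcm7 1 began 165 bases before it. Neutrophil progenitors also divide; the summed neutrophil markers given above were higher in MoM replicate 2. In MoM, Mcm5, Mcm7 and Mcm2 were higher in replicate 1, and Rrm2 and Bub1 in replicate 2. The part of such cells was not tested.

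Genes of cytosolic ribosomal proteins were slightly higher in MoM, with no call. Of 26, all tested, none was called, and 22 had an unadjusted p below 0.05, against 3881 of the 15254 genes tested. In both MoM libraries 24 lay higher, against 29.1% of all genes. All 26 fold changes were positive, with a median of 0.91 (0.71 and 0.99 in turn). Rps16 stood at 116 and 119.7 CPM and at 236 and 213 CPM (log2 fold change 0.93 ± 0.18, adjusted p = 0.0551), and Rps9 at 404 and 369.7 CPM and 866 and 829 CPM (log2 fold change 1.13 ± 0.23, adjusted p = 0.0575). DESeq2 called 11 of the 26 higher, against 16.9% of all genes in either direction.

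Metabolic and lipid mediator genes were split within each list. Of 24 genes of eicosanoid metabolism tested, 2 rose and 1 fell (12.5% called, against 2.5% of all genes). In both MoM libraries 11 lay higher and 10 lower, against 29.1% and 23.8% of all genes. Alox5ap, the protein that hands arachidonate to 5-lipoxygenase, stood at 63.9 and 33.96 CPM and at 367 and 416 CPM (log2 fold change 3.0 ± 0.42, adjusted p = 0.0326). Together with the receptor Ltb4r1, a gene for making leukotrienes and a gene for sensing them thus rose. The fall was Ephx1, and the prostaglandin-degrading Hpgd was lower in level, as given above. Ptger4, a receptor for prostaglandin E2, stood at 69.9 and 44.8 CPM and at 224 and 248 CPM (log2 fold change 2.04 ± 0.46, adjusted p = 0.069). Of 31 lipid and LXR genes, only 1 was called (3.23%, near the 2.5% of all genes). It was Srebf2, the regulator of cholesterol synthesis (100.4 and 80.2 CPM against 408 and 263 CPM, log2 fold change 1.89 ± 0.29, adjusted p = 0.0386). Abca1, the cholesterol exporter, stood at 786 and 365 CPM and at 79.1 and 63.6 CPM (log2 fold change -3.01 ± 0.72, adjusted p = 0.0753), and Apoc1, an apolipoprotein, at 289 and 197 CPM and 4.48 and 6.04 CPM (log2 fold change -5.53 ± 1.19, adjusted p = 0.0644). Of 25 retinoid, steroid and xenobiotic genes tested, 2 fell (8% called, against 2.5% of all genes), Ephx1 among them. Of 21 glycolytic genes, 2 rose (9.52% called). These were Eno3 and Pfkp, a phosphofructokinase (81.2 and 109 CPM against 244 and 266 CPM, log2 fold change 1.42 ± 0.23, adjusted p = 0.0436).

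Genes of pathogen sensing, cytokines and interferon responses gave 3 calls. The called share was 3.45% of pattern recognition genes and 6.06% of cytokines and receptors, against 2.5% of all genes. Of 29 pattern recognition genes tested, Nod2, a sensor of bacterial muramyl dipeptide, rose (20.5 and 11.3 CPM against 142 and 84.2 CPM; log2 fold change 2.83 ± 0.48, adjusted p = 0.0466). Clec4e, the lectin Mincle, stood at 4.2 and 3.83 CPM and at 79.1 and 368 CPM, with the higher value in MoM replicate 2 (log2 fold change 5.8 ± 1.15, adjusted p = 0.0569), and Tlr12, a sensor of profilin, at 258 and 107 CPM and 18.4 and 7.26 CPM (log2 fold change -3.83 ± 0.79, adjusted p = 0.0605). Of 33 cytokines and receptors, Il1r2 rose and Il18 fell. Il18, a cytokine matured by the inflammasome, stood at 50.2 and 42.3 CPM in Kupffer cells and at 7.79 and 12.01 CPM in MoM (log2 fold change -2.22 ± 0.39, adjusted p = 0.0476). Il17ra, the receptor for interleukin 17, stood at 134 and 85.98 CPM and at 309 and 247 CPM (log2 fold change 1.34 ± 0.27, adjusted p = 0.0588). None of 29 interferon gamma response genes and none of 27 type I response genes was called, with 12 and 7 at an unadjusted p below 0.05. Of all 15254 genes tested, 3881 had such a p. DESeq2 called 1 higher and 10 lower in the interferon gamma list, and 0 higher and 7 lower in the type I list. It called 16.9% of all genes in either direction. In these lists 15 and 11 members lay lower, and 3 and 1 higher, in both MoM libraries. Of all genes 23.8% lay lower and 29.1% higher. The medians were -0.76 (-0.49 and -1.11 in turn) and -0.44 (-0.38 and -1.06 in turn). Iigp1, an immunity-related GTPase, stood at 245 and 379.8 CPM and at 57.2 and 129 CPM (log2 fold change -1.75 ± 0.43, adjusted p = 0.078). Nlrc5, the transactivator of MHC class I, went the other way, at 174 and 152 CPM and 298 and 306 CPM (log2 fold change 0.89 ± 0.2, adjusted p = 0.069). Irf7, the amplifier of type I interferon, stood at 772 and 612 CPM and at 154 and 191 CPM (log2 fold change -2.0 ± 0.55, adjusted p = 0.0928).

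**Figure D3:**
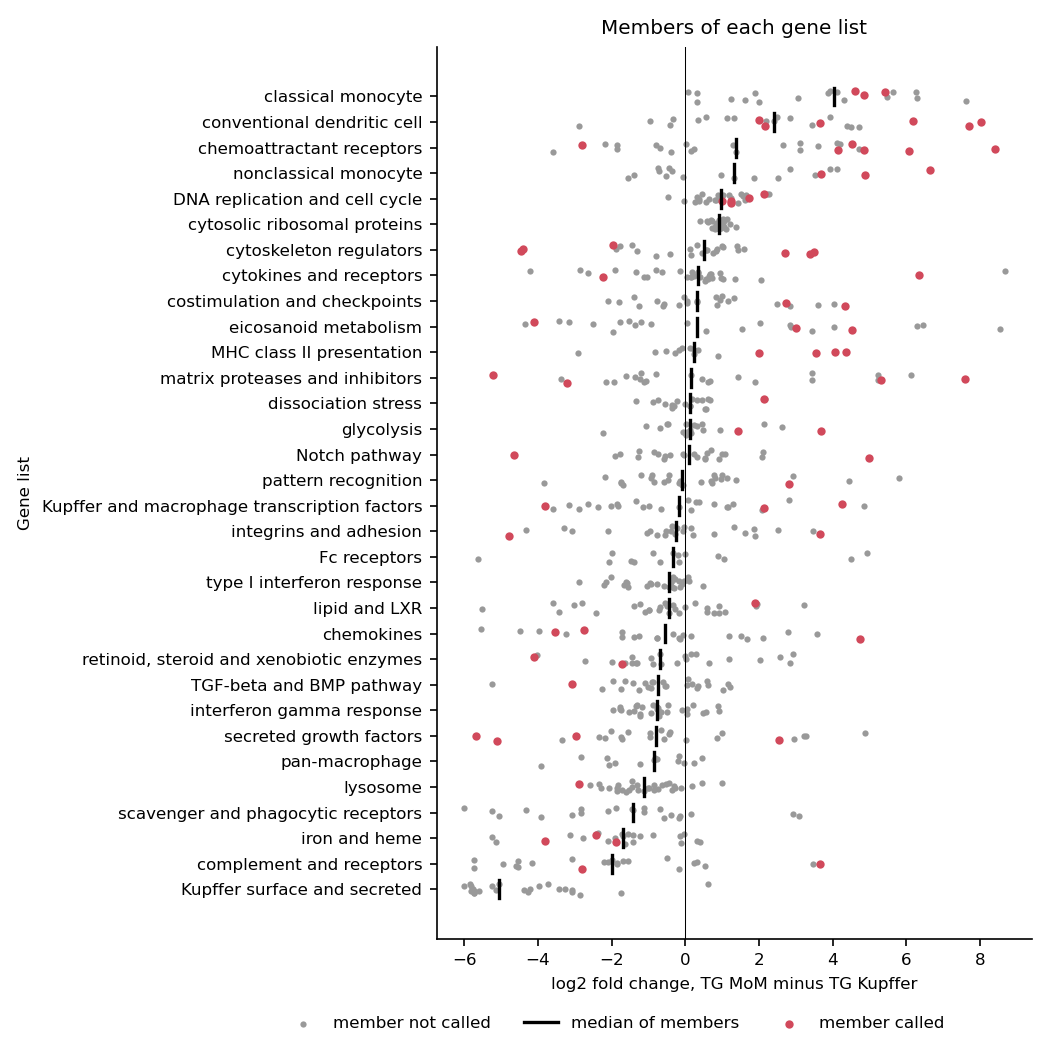
Log2 fold change between TG MoM and TG Kupffer cells of each tested member of 32 gene lists (1 point per gene, red if called), with the median of the list as a black bar, lists ordered by their median. The Kupffer list, at -5.05, has no red point, while the dendritic cell, chemoattractant receptor and cytoskeleton lists have 6 each.

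Markers of other cells were present in both subsets and differed between the libraries of 1 subset. All 22 endothelial markers had a negative fold change (none called), with a median of -1.70 (3.32 and -3.77 in turn). Only Cdh5 had both MoM libraries below both Kupffer libraries, and Cdh5 was also in the list of Kupffer surface and secreted genes. Its Kupffer libraries lay 1.02-fold apart, those of Ptprb 77.2-fold. Of the 22, DESeq2 called 0 higher and 1 lower, against 16.9% of all genes in either direction. In edgeR 1 had an unadjusted p below 0.05, against 3881 of the 15254 genes tested. Ptprb, an endothelial phosphatase, stood at 21.8 and 1687 CPM in Kupffer cells and at 62.9 and 521 CPM in MoM, and Stab2, a hyaluronan receptor of sinusoids, at 350.0 and 1424 CPM and 58.4 and 358 CPM. In each subset replicate 2 held more of them. Stellate markers summed to 74.7 and 739.7 CPM in Kupffer cells and to 29.6 and 177 CPM in MoM. Alb, albumin of hepatocytes, stood at 5.37 and 654 CPM and at 8.21 and 134 CPM, and Hba-a1, hemoglobin α of red cells, whose counts cannot be told from those of its copy Hba-a2, at 133 and 1533 CPM and 181 and 752 CPM.

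Neutrophil markers were higher in MoM: 16 of 19 tested lay higher in both MoM libraries, against 29.1% of all genes. Only Il1r2 was called (5.26%, against 2.5% of all genes), and the median was 5.48 (4.70 and 1.79 in turn). Ngp, a granule protein, stood at 5.67 and 3.32 CPM in Kupffer cells and at 9.64 and 1584 CPM in MoM, and S100a9, calgranulin B, at 9.41 and 6.49 CPM and 28.6 and 842 CPM (log2 fold change 5.77 ± 1.59, adjusted p = 0.0939). Padi4, which citrullinates histones, stood at 0.227 and 0.516 CPM and at 10.5 and 31.6 CPM (log2 fold change 5.81 ± 1.23, adjusted p = 0.0632). Granule genes were thus high in 1 MoM library, and without both Kupffer TG replicate 2 and MoM TG replicate 2 the list's median was 1.29. Of the 10 mast cell and basophil markers tested, 10 lay higher in both MoM libraries, against 29.1% of all genes, and none was called. An unadjusted p below 0.05 was found in 4, against 3881 of the 15254 genes tested. DESeq2 called 5, against 16.9% of all genes. The summed level was 9.94 and 276 CPM in Kupffer cells and 561 and 524 CPM in MoM. Hdc, which makes histamine, stood at 4.99 and 96.1 CPM and at 167 and 213 CPM. Markers of B cells lay higher in both MoM libraries in 11 of 13 genes tested. Those of NK and cytotoxic cells did in 10 of 14, against 29.1% of all genes. Ms4a1, the B cell antigen CD20, stood at 1.32 and 7.04 CPM and at 56.2 and 27.1 CPM, and Prf1, perforin, at 1.1 and 7.08 CPM and 78.7 and 14.9 CPM. T cell markers overlapped: Cd4 stood at 30.2 and 48.04 CPM and at 25.3 and 39.7 CPM. The part of these cells' RNA in the other results was not tested.

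**Figure D4:**
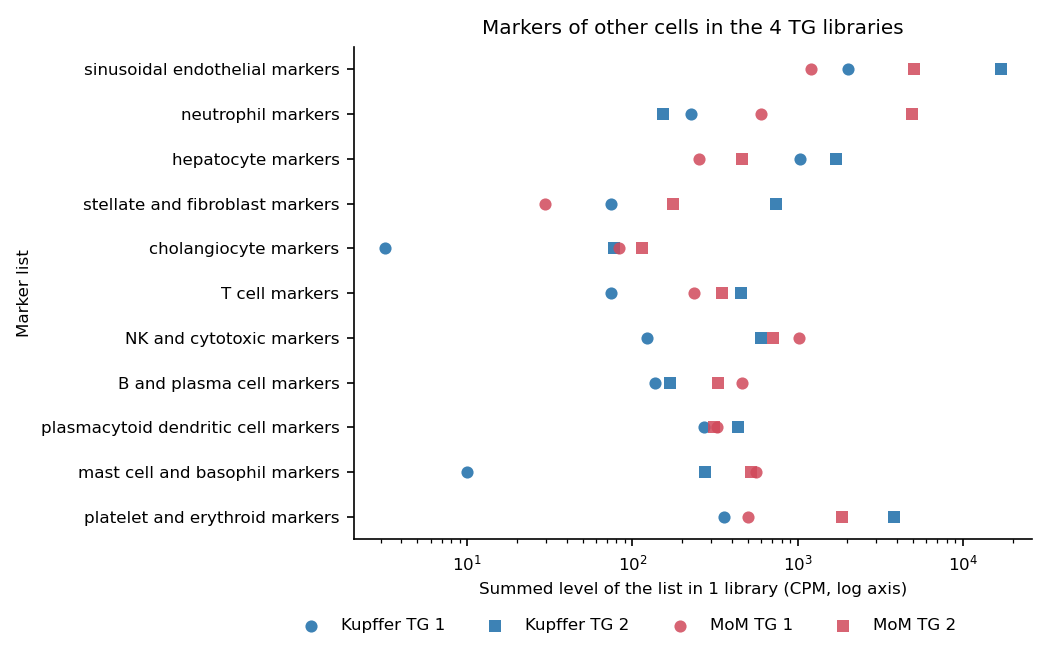
Summed level in CPM (log axis) of 11 lists of markers of other cells in each TG library, blue for Kupffer cells and red for MoM, circles for replicate 1 and squares for replicate 2. Endothelial markers are highest in Kupffer replicate 2, at 17066 CPM, and neutrophil markers in MoM replicate 2, at 4938 CPM.

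The same difference between subsets was measured in WT. Of the 381 called genes, 374 had the same sign in WT, 276 of the 281 rises and 98 of the 100 falls. Over the rises the median was 2.53 in TG and 1.80 in WT, and over the falls -2.75 and -1.45. The genes were chosen by their TG difference, so the smaller WT medians were not tested. MoM WT replicate 1 held the 25 Kupffer surface and secreted genes at a median 31.4% of their WT Kupffer level. In MoM WT replicate 2 the median was 1.37%. The part of MoM WT replicate 1 in the WT medians was not tested either. A test of the difference between genotypes called no gene in edgeR, with 980 at an unadjusted p below 0.05, and 47 in DESeq2. It called 83 without Kupffer TG replicate 1, and 0 in each of the other edgeR fits. The smallest p were those of the genes that follow, none called. Htra1, a secreted serine protease, stood at 13.6 and 6.78 CPM in TG Kupffer cells and at 1.05 and 1.6 CPM in TG MoM, with a difference of -2.94 ± 0.52 in TG and 3.03 ± 0.52 in WT. Smpdl3b, a lipid-modifying enzyme, had 4.48 ± 0.48 in TG, where it rose, and 0.65 ± 0.42 in WT. Kntc1, a kinetochore protein, had 1.9 ± 0.25 and -0.19 ± 0.24, Anpep, aminopeptidase N, 1.21 ± 0.25 and 4.01 ± 0.28, and Hvcn1, a proton channel, 0.6 ± 0.25 and 2.74 ± 0.27. The adjusted p of the genotype difference were 0.626 for Htra1, 0.626 for Smpdl3b, 0.626 for Kntc1, 0.626 for Anpep and 0.626 for Hvcn1.

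**Figure D5:**
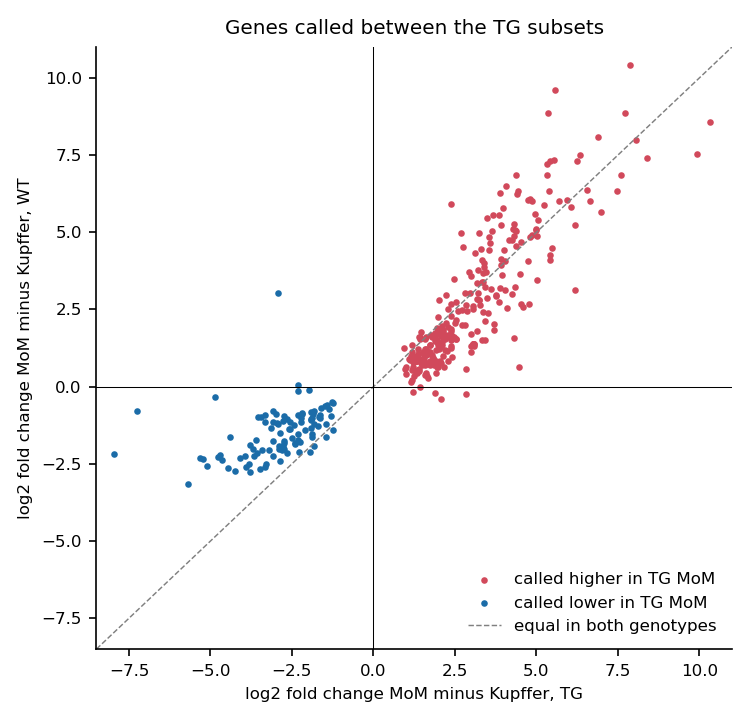
Log2 fold change between MoM and Kupffer cells in WT (vertical axis) against that in TG (horizontal axis) for the 381 genes called in TG, red for rises and blue for falls, with the line of equal change dashed. The points fall in the quadrants of equal sign in 374 of 381, and 95 of the 100 falls and 198 of the 281 rises had the smaller size in WT.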

How the data were processed

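RNA was measured in 8 libraries of mouse liver macrophages. The titles gave each library's group and replicate number. STAR 2.5.2b and mm10, the assembly also named GRCm38, are the aligner and build per the submitters' processing notes. Which counter and annotation were used, and whether strand was read, is not given in the sources used here. Raw counts were deposited by the authors, 1 whole number per gene symbol. Between 65.0% and 68.0% of counts under 20 were even, as when both mates of a pair are counted. If they were, counts overstate independent fragments. The way of counting was not tested. In the 4 TG libraries 1 count was 0.0347 to 0.0378 CPM. A further table of the authors' comparisons of genotypes was not used here.

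All 8 libraries were fitted as 4 groups in edgeR 4.0.16 (R 4.3.3) with filterByExpr, TMM scaling and the quasi-likelihood F-test, with 4 residual degrees of freedom and a common biological coefficient of variation of 0.507. Changes were taken as MoM TG minus Kupffer TG, and the interaction as that difference minus the same difference in WT. The comparison and the 43 gene lists were chosen with earlier results of these data known. Genes named were the 15 genes called that rose most and the 15 that fell most, where the higher subset had at least 10 CPM and libraries did not overlap, up to 5 called and 3 further members of each list by p, label checks, the 3 most abundant members of each other-cell list, and the 5 smallest p of the interaction. Predicted genes and antigen receptor segments were not named, and 1 gene that the rule names is not reported here. Alternatives were a replicate block, DESeq2's size factors in edgeR, all genes unfiltered, each library left out, pairs of libraries left out, only the TG libraries, and the Wald test of DESeq2 1.42.0. Promoters came from RefSeq (GRCm38.p6), the first start listed for a symbol, and gene positions from GENCODE M21 (GRCm38). Python 3.11.15, pandas 2.3.3, numpy 2.4.6 and matplotlib 3.10.9 made the tables and figures.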

Additional observations from a re-analysis of the deposited data

How the results depend on the processing

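The counts of called genes depended on the libraries and the tool more than on the scaling. Size factors gave 231 higher and 117 lower genes, the replicate block 230 and 71, and no filter on low counts 318 and 202. With 1 library left out the higher genes ranged from 0 to 523 and the lower genes from 0 to 533. Only the 4 TG libraries gave 0 and 0, with 2898 genes at an unadjusted p below 0.05. DESeq2 gave 1265 and 1298 on 8 libraries and 1763 and 1789 on the 4 TG libraries. Without both Kupffer TG replicate 2 and MoM TG replicate 2 the counts were 181 and 29, from 1 library per TG subset with the spread of the WT groups. Without both Kupffer TG replicate 2 and MoM WT replicate 1 they were 1021 and 1109. Of the 381 genes, 330 were called with size factors, 352 without the filter, 240 with the block, 345 without the latter pair, 74 without the former, and 381 in either DESeq2 fit; none changed sign in any fit. The interaction had 47 genes in DESeq2 and 0 to 83 with 1 library left out, 83 without Kupffer TG replicate 1. The cause of these differences was not tested.

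Replicate numbers were not shown to pair the libraries: deviations of same-numbered libraries correlated at 0.62 between TG Kupffer cells and TG MoM, at -0.14 between WT Kupffer cells and WT MoM, and at 0.30, 0.23, 0.15 and 0.08 in the other 4 pairs of groups. Among 158 genes of the text, 5, none of them called, changed sign. Without Kupffer TG replicate 2, 13 of these genes lost the call, among them Mcm2, Mcm5, Mcm7 and Wdfy4, and 13 gained it. With the block 19 lost it (C4a, Ctsd, Dip2c, Enpp4, H2-DMb2, Hey1, Htra1, Il18, Itgax, Mcm2, Nr4a1, Pdgfa, Pf4, Runx3, S1pr5, Sema4d, Spic, Tnfsf13b and Trem1) and 9 gained it. With 1 library left out, the log2 fold change of Alb ranged from -5.33 to 3.60, of Hba-a1 and Hba-a2 from -2.20 to 1.69, of Ptprb from -3.76 to 3.61 (each highest without Kupffer TG replicate 2), and of Cd4 from -0.63 to 0.027 (highest without MoM TG replicate 1). Without both replicates 2 of TG Alb had 0.54, Hba-a1 and Hba-a2 0.37 and Ptprb 1.45, and without Kupffer TG replicate 2 and MoM WT replicate 1 they had 3.60, 1.69 and 3.61. Genes at a few counts in Kupffer cells, such as Ffar2, have fold changes limited by depth.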

Other observations

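The genes of this paragraph were chosen after their values were seen. All 8 tested genes of the Ugt1a cluster, which encode UDP-glucuronosyltransferases, were called higher in TG MoM, with log2 fold changes from 2.98 to 3.32. The annotated genes of the cluster overlap on chromosome 1 and share their last exons. In Kupffer TG replicate 1, 7 of the 8 had the same 153 counts, so the 8 calls are close to 1 measurement, and with the cluster counted once 274 genes were higher. Ugt1a1 stood at 5.78 and 6.86 CPM in Kupffer cells and at 47.8 and 51.9 CPM in MoM (log2 fold change 2.98 ± 0.27, adjusted p = 0.0188). Dna2, a nuclease and helicase of DNA repair, stood at 2.42 and 2.69 CPM and at 80.8 and 84.04 CPM (log2 fold change 5.01 ± 0.3, adjusted p = 0.0124). Kynu, kynureninase, stood at 2.68 and 4.09 CPM and at 30.1 and 29.02 CPM (log2 fold change 3.12 ± 0.33, adjusted p = 0.0248), so it rose with Kmo of the same tryptophan pathway.

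Other families, also chosen after their values were seen, held calls in both or 1 direction, against 2.5% of all genes called. Of 16 semaphorin genes tested, 3 were higher: Sema4a (12.97 and 32.7 CPM against 242 and 287 CPM), Sema4d (10.9 and 27.1 CPM against 469.7 and 318 CPM) and Sema7a (2.23 and 3.87 CPM against 143 and 103 CPM). Sema6d, not called, stood at 830.4 and 399 CPM in Kupffer cells and at 20.5 and 27.4 CPM in MoM. Of 6 Enpp genes, ectonucleotidases and phosphodiesterases, 3 were lower and none higher: Enpp1 (-2.27 ± 0.36), Enpp4 (-2.32 ± 0.41) and Enpp5 (-2.74 ± 0.31). Of 11 MS4A genes tested, 8 were not called, while Ms4a4a (4.26 ± 0.42) and Ms4a4c were higher and Ms4a7 (-2.74 ± 0.35) lower. Lpar1, a receptor for lysophosphatidic acid, fell from 19.4 and 17.03 CPM to 2.18 and 2.15 CPM (log2 fold change -3.07 ± 0.33, adjusted p = 0.0248), and Procr, the protein C receptor, from 143 and 103 CPM to 18.97 and 30.4 CPM (log2 fold change -2.32 ± 0.3, adjusted p = 0.0305).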
